A study of Mus musculus with 8 samples.

Results

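Bone morphogenetic protein (BMP) signalling was examined through 10 of the 24346 genes listed in this study, the ligands Bmp4, Bmp2 and Bmp7, the receptors Bmpr1a, Bmpr1b and Bmpr2, the intracellular Smads Smad6, Smad7 and Smad9, and the pseudoreceptor Bambi. The 10 genes were taken by symbol from the deposited expression table. They were chosen with the Med23-/- against Med23+/+ difference already known, in which Bmp4 was among the genes with the largest falls, so their genotype differences are given below as a description without a test. The RNA sequenced came from 8 cultures, 4 per genotype, of immature oligodendrocytes induced in vitro (iOLs). Oligodendrocyte precursor cells (OPCs) had been taken from the brain of P7 mice by immunopanning on CD140a, which is the PDGF receptor alpha, and grown with PDGF-AA and NT-3. All 8 cultures then received 15 nM T3, the active thyroid hormone, with 10 ng/mL of the cytokine CNTF for 1 day. The Med23-/- cells came from Med23fl/fl;Olig1-Cre mice, in which Cre under Olig1 control removes floxed Med23 in the oligodendrocyte lineage. The Med23+/+ cells came from Med23fl/fl mice, so both groups carry the floxed alleles and the controls carry no Cre. Nothing in the labels says which cultures share an animal, and a p-value here measures only the spread between these cultures.

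BMPs are secreted ligands that bind a complex of type I receptors (Bmpr1a and Bmpr1b) and type II receptors (Bmpr2). The type I receptor then phosphorylates receptor-activated Smads (Smad1, Smad5 and Smad9), which enter the nucleus with Smad4 and switch on targets such as the Id genes. Smad6 and Smad7 are inhibitory Smads that are themselves induced by the pathway, and Bambi is a membrane protein that resembles a type I receptor without a kinase. Smad9 is thus a signal transducer and not an inhibitory Smad. In cultured OPCs, BMPs are known to hold back oligodendrocyte maturation and to favour astrocyte fate, while Bmp4 itself is a known marker of the committed precursor stage between OPC and oligodendrocyte.

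RefSeq promoter sequences (GRCm38.p6) were examined for 6 of the 10 genes, namely Bmp4, Bmpr1a, Bmpr1b, Bmpr2, Smad6 and Smad9. Promoters of the remaining members, Bmp2, Bmp7, Smad7 and Bambi, were not examined. The 250 bases before the transcription start are printed 5′ to 3′ in the direction of the gene for Bmp4, Smad6 and Smad9, whose libraries were lower in Med23-/- iOLs without overlap, and for Bmpr1a, whose mean was the same in both genotypes. Bmpr1b was also lower without overlap, by a narrow margin, and its promoters are not printed. Capitals mark the GC box, GGGCGG on either strand (CCGCCC), the sequence recognised by factors of the Sp1 family. The windows lie at chr14:46390670-46390919 on the minus strand for Bmp4, chr9:64022060-64022309 on the minus strand for Smad6, chr3:54755332-54755581 on the plus strand for Smad9 and chr14:34502547-34502796 on the minus strand for Bmpr1a.
Bmp4: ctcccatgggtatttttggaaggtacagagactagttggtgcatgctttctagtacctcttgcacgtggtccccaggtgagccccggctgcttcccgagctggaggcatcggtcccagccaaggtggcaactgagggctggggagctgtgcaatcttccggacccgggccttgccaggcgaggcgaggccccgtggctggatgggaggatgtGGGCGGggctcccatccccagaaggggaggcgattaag
Smad6: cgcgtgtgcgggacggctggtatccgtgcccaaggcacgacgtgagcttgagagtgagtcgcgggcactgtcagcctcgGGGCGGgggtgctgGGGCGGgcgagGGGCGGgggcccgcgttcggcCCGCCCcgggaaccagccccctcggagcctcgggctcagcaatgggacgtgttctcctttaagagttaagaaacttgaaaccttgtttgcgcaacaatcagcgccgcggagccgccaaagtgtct
Smad9: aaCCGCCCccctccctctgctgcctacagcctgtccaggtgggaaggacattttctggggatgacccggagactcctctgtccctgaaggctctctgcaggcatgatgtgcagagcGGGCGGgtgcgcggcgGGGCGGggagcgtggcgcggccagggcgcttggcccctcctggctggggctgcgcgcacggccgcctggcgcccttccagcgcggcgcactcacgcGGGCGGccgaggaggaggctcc
Bmpr1a: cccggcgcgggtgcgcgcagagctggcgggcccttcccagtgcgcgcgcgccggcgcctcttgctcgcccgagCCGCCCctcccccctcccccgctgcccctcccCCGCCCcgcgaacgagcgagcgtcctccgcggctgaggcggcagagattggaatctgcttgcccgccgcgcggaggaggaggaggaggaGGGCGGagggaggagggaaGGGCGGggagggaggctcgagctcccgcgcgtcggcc
The window of Bmp4 held 1 GC box, 38 bases before the start. Smad6, Smad9 and Bmpr1a held 4 each, Bmpr2 held 1, and the 3 listed promoters of Bmpr1b held 0. The windows of Bmp4, Smad6 and Smad9 adjoin the 5′ end of the gene span in GENCODE vM21. Those of Bmpr1a, Bmpr2 and Bmpr1b lie inside the spans given below, so they precede other starts. For Bmpr1b all 3 windows end by chr3:141982514, far from the 5′ end of its span at 142169425, and that end was not scanned. At least 1 GC box was present in 32.7% of all 32851 promoters and in 58.5% of the 11940 promoters of genes tested, and 4 or more were present in 4.09% and 8.42%. The GC-rich motif GGCGCC, a known binding sequence of BMP-responsive Smads that reads the same on both strands, was found once in each of the windows of Smad9, Bmpr1a and Bmpr2, overlapping no GC box there, and in none of Bmp4, Smad6 or Bmpr1b. It was present in 9.59% of all promoters and 17.6% of those of genes tested. The window of Bmpr1a, with no difference in mean level, held as many GC boxes as those of Smad6 and Smad9. Whether GC boxes bear on the levels of these genes was not tested.

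Levels are given in FPKM, fragment counts scaled for gene length and sequencing depth, which permits comparison between genes. Med23, the targeted gene, was at 12.2 to 12.7 FPKM in Med23+/+ and 7.93 to 8.49 FPKM in Med23-/- libraries (log2 fold change -0.55, SE 0.07, limma adjusted p = 0.000353). Its transcript was thus lower but present, and gene values do not show whether the floxed exon was lost. For the protein, the paper reports that the deletion was verified by western blot of primary OPCs from these mice. Genes averaging 1 FPKM or more across all libraries entered limma on log2(FPKM + 1), a scale that understates the change of low genes, and were called with a Benjamini-Hochberg adjusted p under 0.05. Of the 12328 genes tested, 30.0% were called, 14.1% lower and 15.9% higher in Med23-/- iOLs, while 4.73% were called with a fold change above 2 and 31.6% had no overlap between the genotypes. Over all these genes the median log2 fold change was -0.01. Against this background 7 of the 10 BMP genes were tested, since Bmp2, Smad6 and Bambi had a mean below 1 FPKM. Lower calls were made for 4 (Bmp4, Bmpr2, Smad7 and Smad9) and a higher call for 1 (Bmp7), with no call for Bmpr1a and Bmpr1b. A single member, Bmp4, also passed the fold limit, which was applied on the log2(FPKM + 1) scale, and 4 of the 7 had no overlap. In mean FPKM, Smad9 differed 3.07-fold and Bmp7 2.02-fold. Because the genes were chosen on this contrast, nothing is read from these counts or from the single calls. The same holds for whether a member's call was kept in other fits, which is given below as a description. In bulk cultures, fewer cells of a type and less RNA per cell cannot be told apart.

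**Figure D1:**
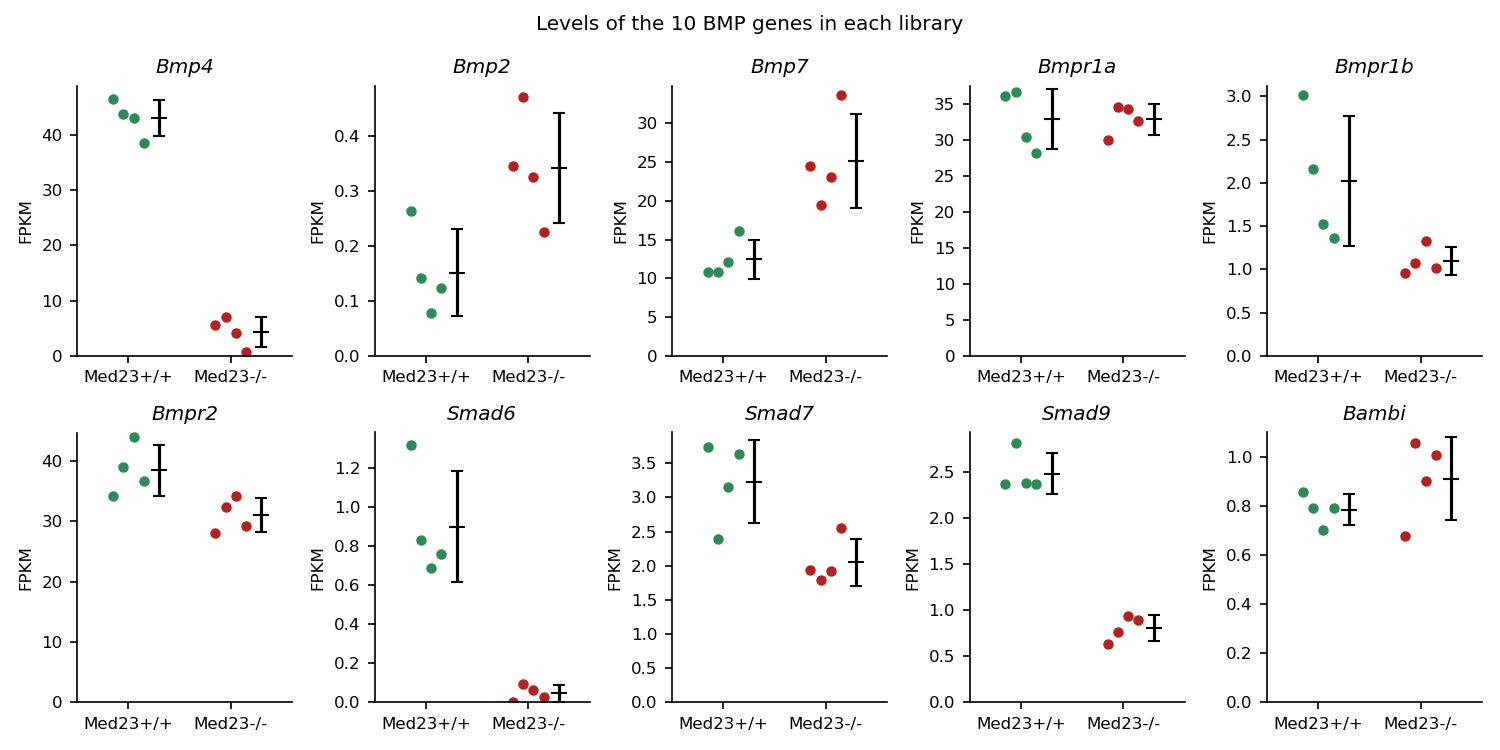
Level of each of the 10 BMP genes in FPKM (y axis, from 0, a separate scale per gene) in the 4 Med23+/+ (green) and 4 Med23-/- (red) libraries, drawn in replicate order; the black mark and bar give the mean ± SD. Bmp4, Smad6 and Smad9 lie well below the Med23+/+ libraries, Bmp7 lies above them, and Bmpr1a occupies the same range in both genotypes.

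Bmp4 was the most abundant of the 10 genes in Med23+/+ iOLs and ranked below both main receptors and Bmp7 in Med23-/- iOLs. Its level in Med23+/+ replicates 1 to 4 was 46.5, 43.8, 43.1 and 38.6 FPKM, against 5.68, 7.00, 4.06 and 0.737 FPKM in Med23-/- replicates 1 to 4. Every Med23-/- library was far below every Med23+/+ library, and Med23-/- replicate 4 was the lowest. The means were 43.0 ± 3.30 and 4.37 ± 2.70 FPKM (SD, n = 4 each), a 9.84-fold higher level in Med23+/+ iOLs, and the log2 fold change was -3.24 (SE 0.39). It was -2.66 within replicates 1 and 2 and -3.82 within replicates 3 and 4, and -2.76 without Med23-/- replicate 4. Of the genes above 0 in at least 1 library, 89.8% had a lower mean than Bmp4 in Med23+/+ iOLs and 46.6% in Med23-/- iOLs. The Bmp4 locus (GENCODE vM21, mm10, chr14:46383520-46390669, minus strand) shares exon sequence with Gm15217 on the opposite strand, and the sources used here do not state whether reads were assigned by strand. Gm15217 was listed at 0.879, 1.13, 0.591 and 0 FPKM in Med23+/+ and at 0 in all 4 Med23-/- libraries, small beside Bmp4.

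Bmp7, a ligand of the same family, went the other way. The Med23+/+ libraries held 10.9, 10.8, 12.1 and 16.1 FPKM and the Med23-/- libraries 24.5, 19.5, 23.1 and 33.6 FPKM. The lowest Med23-/- library was above the highest Med23+/+ library, and replicate 4 was the highest in both genotypes. Mean levels were 12.5 ± 2.48 and 25.2 ± 6.03 FPKM (SD, n = 4 each), 2.02-fold higher in Med23-/- iOLs, with a log2 fold change of 0.95 (SE 0.17) and the same value, 0.95, within each pair of replicates. Bmp7 lies at chr2:172868012-172940321.

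Bmp2, the closest relative of Bmp4, was scarcely detected. It was at 0.263, 0.141, 0.0783 and 0.123 FPKM in Med23+/+ and at 0.344, 0.470, 0.325 and 0.226 FPKM in Med23-/- libraries, and the ranges overlapped.

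The transcripts of these 3 ligands therefore changed in make-up as well as in summed level. Ligand protein was not measured. Summed over the 3 ligands, Med23+/+ libraries held 54.8 to 57.7 FPKM (mean 55.6 ± 1.38, SD, n = 4) and Med23-/- libraries 26.9 to 34.6 FPKM (mean 29.9 ± 3.52, SD, n = 4). Bmp4 made up 70.4 to 80.7% of this sum in Med23+/+ and 2.13 to 26.0% in Med23-/- libraries. The ratio of Bmp7 to Bmp4 was 0.233, 0.248, 0.280 and 0.417 in Med23+/+ and 4.32, 2.78, 5.67 and 45.6 in Med23-/- libraries, the last value belonging to replicate 4 with its low Bmp4. Without that library the Med23-/- ratios ended at 5.67 and still lay above all Med23+/+ ratios.

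**Figure D2:**
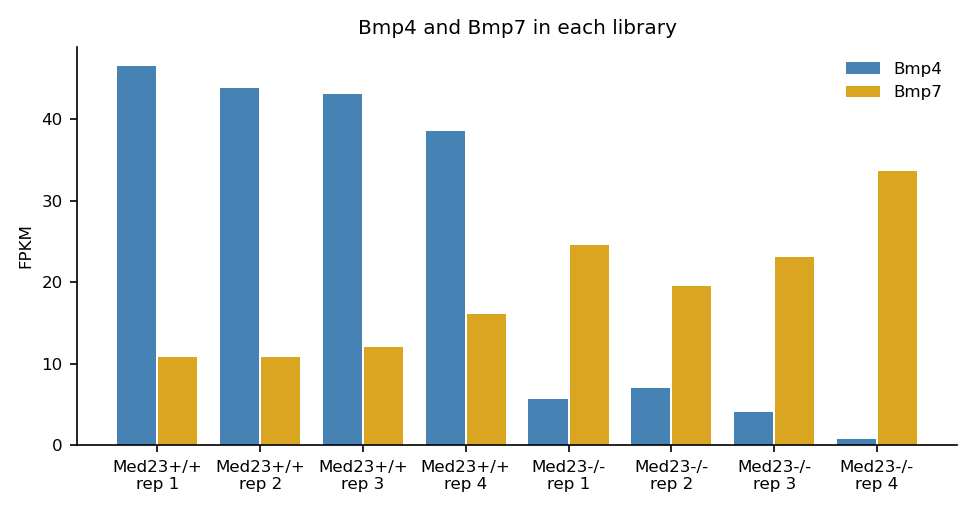
FPKM (y axis, from 0) of Bmp4 (blue bars) and Bmp7 (yellow bars) in each of the 8 libraries (x axis). Bmp4 is the taller bar in all 4 Med23+/+ libraries and Bmp7 in all 4 Med23-/- libraries, with Bmp4 at 0.737 FPKM in Med23-/- replicate 4.

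The receptors were present at levels that differed little between genotypes, except for the scarce Bmpr1b. Bmpr1a, the broadly expressed type I receptor (chr14:34410734-34503341), was at 36.1, 36.6, 30.4 and 28.2 FPKM in Med23+/+ and at 29.9, 34.6, 34.3 and 32.6 FPKM in Med23-/- libraries. The groups overlapped fully, both means were 32.8 FPKM (SD 4.17 and 2.14, n = 4 each), and the log2 fold change was 0.01 (SE 0.10), being -0.17 within replicates 1 and 2 and 0.18 within replicates 3 and 4. Its exons overlap the antisense gene Gm17110, which is not among the genes listed.

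Bmpr2, the type II receptor (chr1:59763400-59879014), was at 34.2, 39.0, 44.0 and 36.7 FPKM in Med23+/+ and at 28.1, 32.4, 34.3 and 29.3 FPKM in Med23-/- libraries. The ranges met at their ends. The log2 fold change was -0.30 (SE 0.10), and its call was kept in 2 of the 8 fits that left out 1 library.

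Bmpr1b, the second type I receptor (chr3:141837136-142169425), was at 3.01, 2.16, 1.53 and 1.36 FPKM in Med23+/+ and at 0.962, 1.07, 1.33 and 1.01 FPKM in Med23-/- libraries. The groups did not overlap, but by a narrow margin, between 1.36 and 1.33 FPKM. The log2 fold change was -0.50 (SE 0.17). It was -0.82 within replicates 1 and 2 and -0.17 within replicates 3 and 4, -0.35 without Med23+/+ replicate 1, and -0.77 with a pseudocount of 0.1 in place of 1. It was called in 4 of the 15 alternative fits, 1 of them among the 8 that left out 1 library. Bmpr1a exceeded Bmpr1b by 11.98 to 20.8 times in Med23+/+ and by 25.8 to 32.3 times in Med23-/- libraries.

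Among the Smads, Smad9 and Smad6 were lower in all Med23-/- libraries, and Smad7 was lower on average. Smad9, a receptor-activated Smad (chr3:54755582-54801257), was at 2.37, 2.82, 2.38 and 2.37 FPKM in Med23+/+ and at 0.635, 0.768, 0.942 and 0.893 FPKM in Med23-/- libraries. No Med23-/- library came near the Med23+/+ range. The means were 2.49 ± 0.225 and 0.810 ± 0.137 FPKM (SD, n = 4 each), 3.07-fold higher in Med23+/+ iOLs. The log2 fold change was -0.95 (SE 0.11) with a pseudocount of 1 FPKM and -1.52 with 0.1 FPKM.

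Smad6, the inhibitory Smad most selective for the BMP branch (chr9:63953076-64022059), was below the limit for testing. Its level was 1.31, 0.830, 0.686 and 0.761 FPKM in Med23+/+ and 0, 0.0949, 0.0644 and 0.0257 FPKM in Med23-/- libraries. All Med23+/+ libraries exceeded all Med23-/- libraries, and the mean of Smad6 in Med23-/- iOLs was the lowest of the 10 genes. The difference of mean log2(FPKM + 1) was -0.85 (unmoderated SE 0.11).

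Smad7, the inhibitory Smad that also acts on the TGF-beta branch (chr18:75367529-75395935), was at 3.74, 2.40, 3.16 and 3.63 FPKM in Med23+/+ and at 1.94, 1.79, 1.92 and 2.55 FPKM in Med23-/- libraries. The groups overlapped between 2.40 and 2.55 FPKM. Its log2 fold change was -0.47 (SE 0.14), and its call was kept in 2 of the 8 fits that left out 1 library.

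Bambi (chr18:3507923-3516404) was at 0.857, 0.794, 0.704 and 0.792 FPKM in Med23+/+ and at 0.679, 1.06, 0.903 and 1.01 FPKM in Med23-/- libraries. The Med23-/- libraries reached both below and above the Med23+/+ range.

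Ordered by mean level, the Med23+/+ iOLs ran from Bmp4 through Bmpr2, Bmpr1a, Bmp7, Smad7, Smad9, Bmpr1b, Smad6 and Bambi to Bmp2. Neighbours in this order had overlapping ranges except at 4 steps, from Bmpr1a to Bmp7, from Bmp7 to Smad7, from Bmpr1b to Smad6 and from Bambi to Bmp2. The order in Med23-/- iOLs was Bmpr1a, Bmpr2, Bmp7, Bmp4, Smad7, Bmpr1b, Bambi, Smad9, Bmp2 and Smad6. The steps without overlap were there from Bmp7 to Bmp4, from Smad7 to Bmpr1b, from Smad9 to Bmp2 and from Bmp2 to Smad6. Bmp4 thus had a higher mean than Bmpr1a and Bmpr2 in Med23+/+ iOLs and lay below both in every Med23-/- library.

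The other pathway genes were then read from the same fit, in lists of genes that are not members, written with earlier results of these data known. Over the BMP lists, 29 of 53 genes were tested, of which 10 were called lower and 5 higher, with a median log2 fold change of -0.02.

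Of the 8 BMP target genes listed, 6 were tested, 5 were called lower and 0 higher, and the median log2 fold change was -0.89. Id1, a dominant negative helix-loop-helix factor that restrains differentiation, was at 90.8, 62.0, 78.2 and 62.3 FPKM in Med23+/+ and at 13.0, 15.3, 10.8 and 6.85 FPKM in Med23-/- libraries (log2 fold change -2.61, SE 0.21, limma adjusted p = 4.57e-05). Id3, of the same family, was at 163, 129, 157 and 142 FPKM against 32.2, 34.2, 28.3 and 18.3 FPKM (log2 fold change -2.38, SE 0.18, limma adjusted p = 2.89e-05). For both, all Med23-/- libraries were well below all Med23+/+ libraries and Med23-/- replicate 4 was the lowest, as for Bmp4. Id1 and Id3 were already known to be lower when the list was written. Id2 fell less, from 102 ± 10.2 to 57.9 ± 4.98 FPKM (SD, n = 4 each, limma log2 fold change -0.80, adjusted p = 0.000295), and Atoh8, a helix-loop-helix factor induced by BMPs, from 8.85 ± 0.619 to 4.13 ± 1.38 FPKM (SD, n = 4 each, limma log2 fold change -0.98, adjusted p = 0.00301). Id4 had overlapping groups and passed more narrowly (log2 fold change -0.61, limma adjusted p = 0.0305). Its adjusted p was 0.0656 without Med23+/+ replicate 1, 0.0686 without Med23+/+ replicate 3, 0.0701 without Med23-/- replicate 2 and 0.0682 without Med23-/- replicate 4, and 0.0576 in the fit without a filter on low values. Hey1, a target shared with Notch signalling, was not called (log2 fold change 0.23, limma adjusted p = 0.0978), although its adjusted p was 0.0261 without Med23+/+ replicate 1. Msx2, too low to be tested, was at 0.334, 0.139, 0.192 and 0.0891 FPKM in Med23+/+ and listed at 0 in all 4 Med23-/- libraries.

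**Figure D3:**
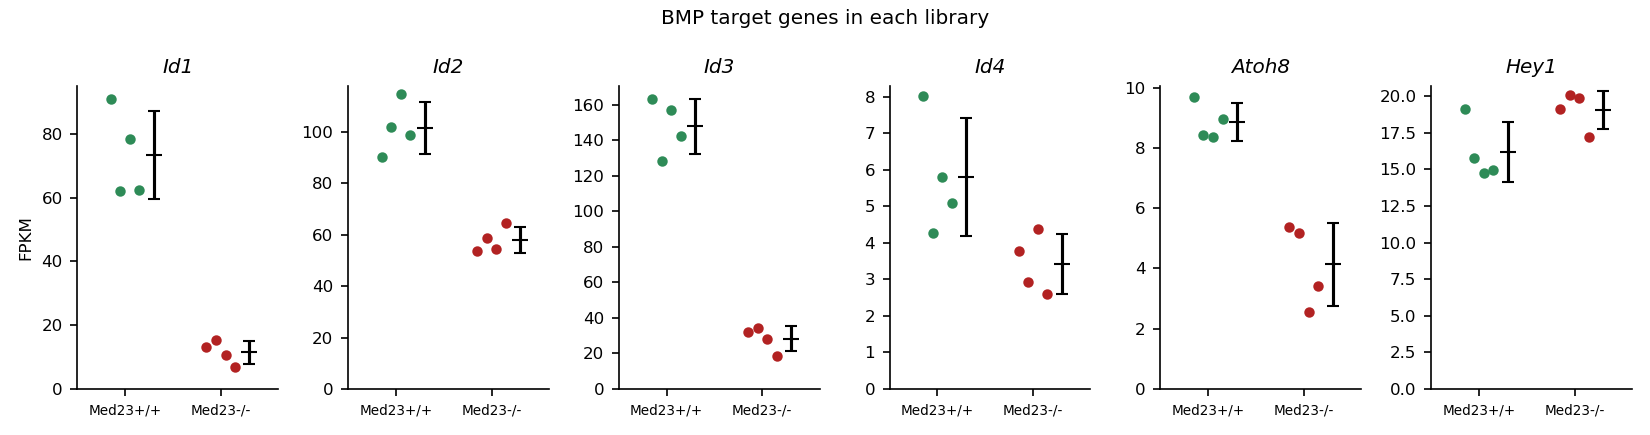
FPKM (y axis, from 0, a separate scale per gene) of the 6 BMP target genes tested in the 4 Med23+/+ (green) and 4 Med23-/- (red) libraries, with the mean ± SD in black. Id1, Id2, Id3 and Atoh8 do not overlap between genotypes, while Id4 and Hey1 do.

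Of the 17 extracellular BMP antagonists and modulators listed, 8 were tested, 1 was called lower and 4 higher, and the median log2 fold change was 0.27. Nog, which encodes the BMP-sequestering protein noggin, was at 7.38, 4.15, 3.35 and 4.26 FPKM in Med23+/+ and at 1.18, 1.20, 1.33 and 1.18 FPKM in Med23-/- libraries. All Med23-/- libraries were lower (log2 fold change -1.33, SE 0.18, limma adjusted p = 0.000662). Nbl1, an antagonist of the DAN family, was higher, at 1.82 ± 0.692 against 5.62 ± 0.562 FPKM (SD, n = 4 each, limma log2 fold change 1.26, SE 0.18, adjusted p = 0.000819). Bmper, which binds BMPs outside the cell, rose from 1.14 ± 0.196 to 2.54 ± 0.613 FPKM (SD, n = 4 each, limma log2 fold change 0.71, adjusted p = 0.0056). Twsg1, a modulator that acts with chordin and was named after its value was seen, rose by 0.34 on the log2 scale (limma adjusted p = 0.012). Chrdl1, a chordin-like antagonist, passed narrowly with overlapping groups (log2 fold change 0.65, limma adjusted p = 0.0473). Its adjusted p ran from 0.0194 to 0.129 over 15 other fits and was above 0.05 in 11 of them, among them those without Med23+/+ replicate 1 (0.101), 3 (0.12) or 4 (0.0792) and without Med23-/- replicate 1 (0.109), 3 (0.0611) or 4 (0.101).

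The other Smads and their regulators were all above the limit for testing, and of these 10 genes 3 were called lower and 1 higher (median log2 fold change -0.10). Smad1, the receptor-activated Smad most used by BMPs, fell from 23.5 ± 2.88 to 16.5 ± 0.462 FPKM (SD, n = 4 each, limma log2 fold change -0.48, SE 0.09, adjusted p = 0.00336), with no overlap. Smad5, its close relative, was at 33.8 ± 1.19 and 29.7 ± 2.47 FPKM (SD, n = 4 each) and not called (log2 fold change -0.18, limma adjusted p = 0.0991), with 0.0486 when Med23-/- replicate 2 was left out. The shared partner Smad4 was not called (log2 fold change 0.05, SE 0.07, limma adjusted p = 0.636). Among the 3 receptor-activated Smads of the BMP branch, Smad9 was thus the least abundant and had the largest fold difference. Skil, a Smad co-repressor, fell by 0.54 on the log2 scale (limma adjusted p = 0.00948), and Fkbp1a, which keeps type I receptors inactive, by 0.45 (limma adjusted p = 0.00136). Smurf1, a ubiquitin ligase for Smads and receptors, was called higher (log2 fold change 0.34, limma adjusted p = 0.0273). Its adjusted p was 0.0585 after quantile normalization and 0.0612, 0.063 and 0.0691 without Med23+/+ replicates 2, 3 and 4, and 0.0685 and 0.0555 without Med23-/- replicates 1 and 4.

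Of the 7 other receptors and co-receptors, 5 were tested and 1, the BMP co-receptor Rgmb, was called lower (log2 fold change -0.47, limma adjusted p = 0.0275), with a list median of 0.07. The call of Rgmb was lost without Med23+/+ replicate 1 (adjusted p = 0.0689) or 3 (0.0766) and without Med23-/- replicate 2 (0.0687) or 4 (0.0581). The type I receptor Acvr1 was at 9.81 ± 0.571 and 10.3 ± 0.290 FPKM (SD, n = 4 each, limma adjusted p = 0.511). None of the 11 other BMP and GDF ligands reached a mean of 1 FPKM. The highest in Med23-/- iOLs was Bmp6, a ligand of the Bmp7 subgroup, at 0.454, 0.287, 0.210 and 0.351 FPKM in Med23+/+ and 1.45, 0.778, 1.13 and 1.37 FPKM in Med23-/- libraries. All Med23-/- libraries were higher, and in the fit without a filter on low values its log2 fold change was 0.71 (limma adjusted p = 0.00291). It was named after its values were seen.

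For comparison, the related TGF-beta and activin arm had 12 genes listed and 6 tested, of which 0 were called lower and 2 higher (median log2 fold change 0.12). Inhbb, an activin subunit, rose from 2.63 ± 0.660 to 7.63 ± 0.711 FPKM (SD, n = 4 each, limma log2 fold change 1.27, adjusted p = 0.000217), and Tgfb2, a TGF-beta ligand, rose by 0.90 on the log2 scale (limma adjusted p = 0.0043). The transducers Smad2 and Smad3 were not called (limma adjusted p = 0.744 and 0.217), though Smad3 was at an adjusted p of 0.0335 after quantile normalization.

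**Figure D4:**
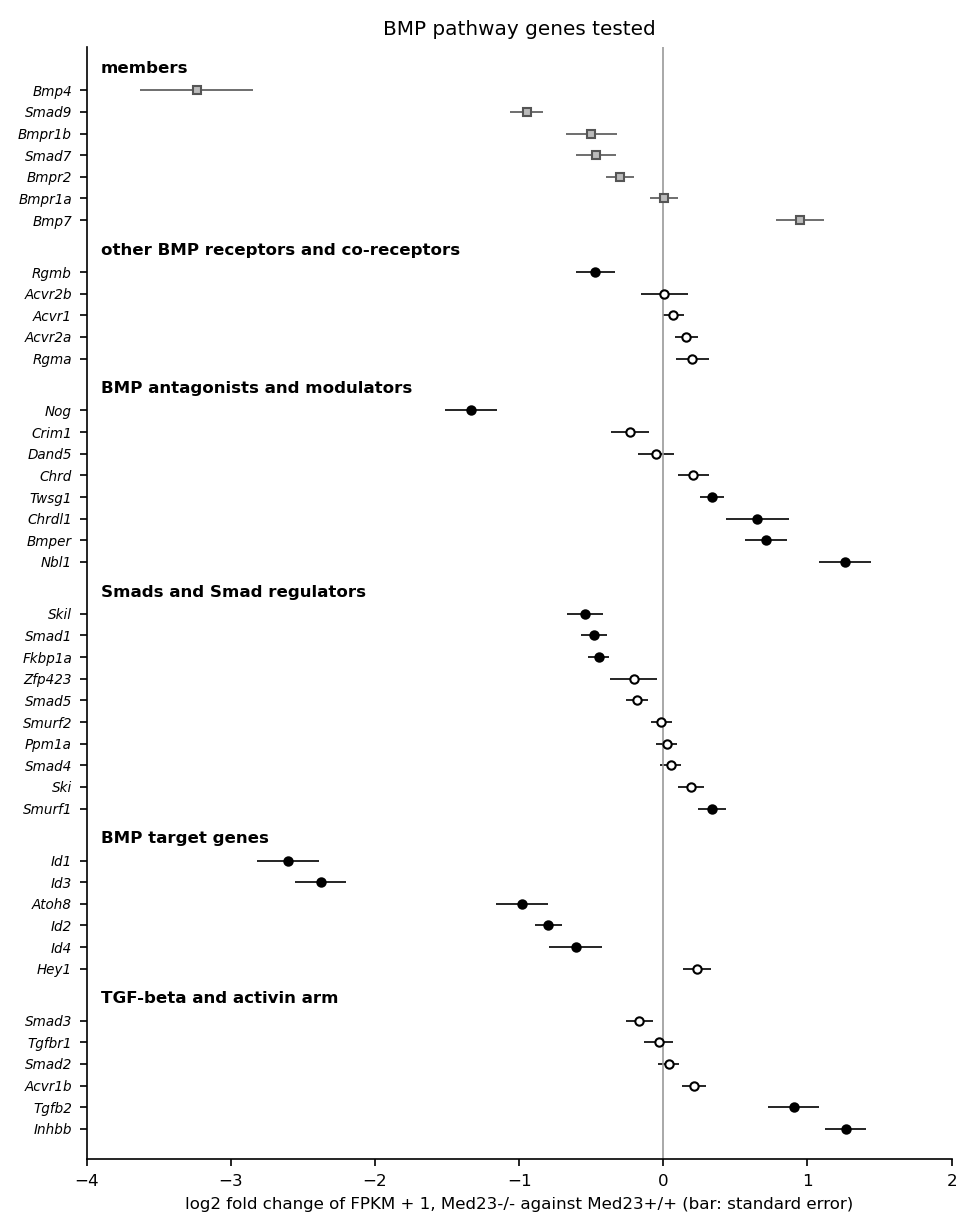
Log2 fold change of FPKM + 1, Med23-/- against Med23+/+ (x axis), with its standard error, for the tested BMP genes (grey squares, no test given) and for the tested genes of 5 further lists (circles, filled where limma called the gene). Among the target genes Id1 (-2.61) and Id3 (-2.38) lie farthest to the left, Nog (-1.33) and Nbl1 (1.26) lie on opposite sides among the antagonists, and Bmp4 (-3.24) is the lowest of all genes drawn.

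Markers of the cells in culture were measured beside these genes. The 6 OPC markers summed to 1522 to 1876 FPKM in Med23+/+ and 1744 to 2228 FPKM in Med23-/- libraries, with Pdgfra and Cspg4 called higher and Sox10 lower, so the labelled lineage was present in both groups. All 5 committed precursor markers (Enpp6, Bcas1, Gpr17, Tns3 and Itpr2) were called lower, and their sum was 1598 to 1769 FPKM in Med23+/+ and 431 to 894 FPKM in Med23-/- libraries. Med23-/- replicate 4 had the lowest sum as well as the lowest Bmp4, and the 4 Med23-/- libraries had the same order in both. The Med23+/+ libraries did not, with Bmp4 highest in replicate 1 (46.5 FPKM) and the sum highest in replicate 3 (1769 FPKM). Of 7 myelinating oligodendrocyte markers, 5 were tested and all 5 were called lower, and the sum was 273 to 390 FPKM against 65.2 to 78.8 FPKM. Of 8 astrocyte markers, 3 were called lower (Gfap, Aqp4 and S100b) and 1 higher (Slc1a2), with a sum of 219 to 275 FPKM against 111 to 165 FPKM. S100b alone was at 105 to 161 FPKM in Med23+/+ and 9.31 to 23.6 FPKM in Med23-/- libraries, a large part of the gap between the sums. Aldh1l1, Slc1a3, Gja1 and Aldoc were not called. All 5 neuronal markers were called higher, with a sum of 35.4 to 57.5 FPKM against 73.4 to 144.1 FPKM. The 6 microglial markers, all too low to be tested, summed to 0.989 to 1.71 FPKM and 1.31 to 1.76 FPKM, endothelial markers to 0.488 to 1.18 FPKM and 1.13 to 2.95 FPKM with the 1 of 5 tested (Kdr) called higher, and mural and fibroblast markers to 0.826 to 7.57 FPKM and 2.32 to 13.2 FPKM with the 1 of 5 tested (Col1a1) not called. No marker of any list was at 0 in all 8 libraries. The part of these cell type differences in the levels of the BMP genes was not tested.

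The genes most like Bmp4 were sought by Pearson correlation of log2(FPKM + 1) over the 8 libraries among 9433 genes averaging 5 FPKM or more. They were Rasgef1b (r = 0.996), Myrf (0.996), Arsb (0.995), Tmem88b (0.994) and Fa2h (0.993). Myrf is the transcription factor that drives myelin genes and Fa2h an enzyme of myelin lipid synthesis. The 8 points fall into 2 genotypes, which raises such correlations, and 185 genes exceeded 0.95. After each genotype's own mean was removed, r was 0.987 for Rasgef1b, 0.976 for Myrf and 0.945 for Fa2h, in the same libraries that picked these genes. Med23-/- replicate 4 was the lowest of its genotype for Bmp4 and for these genes, and it weighs heavily in these values. Myrf was at 5.66 FPKM there, against 9.86 to 15.9 FPKM in the other Med23-/- libraries. For Bmpr1b the 5 most alike were 5730408K05Rik (r = 0.978), Aldh1l1 (0.970), Hopx (0.968), Inip (0.962) and Gatc (0.960), and 6 genes exceeded 0.95. Aldh1l1, an astrocyte marker, was at 16.1, 9.68, 7.71 and 6.60 FPKM in Med23+/+ and at 4.86, 4.83, 8.16 and 4.86 FPKM in Med23-/- libraries. Like Bmpr1b it was highest in Med23+/+ replicate 1, and Med23-/- replicate 3 was the highest of its genotype for both. These correlations describe 8 libraries and carry no test.

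**Figure D5:**
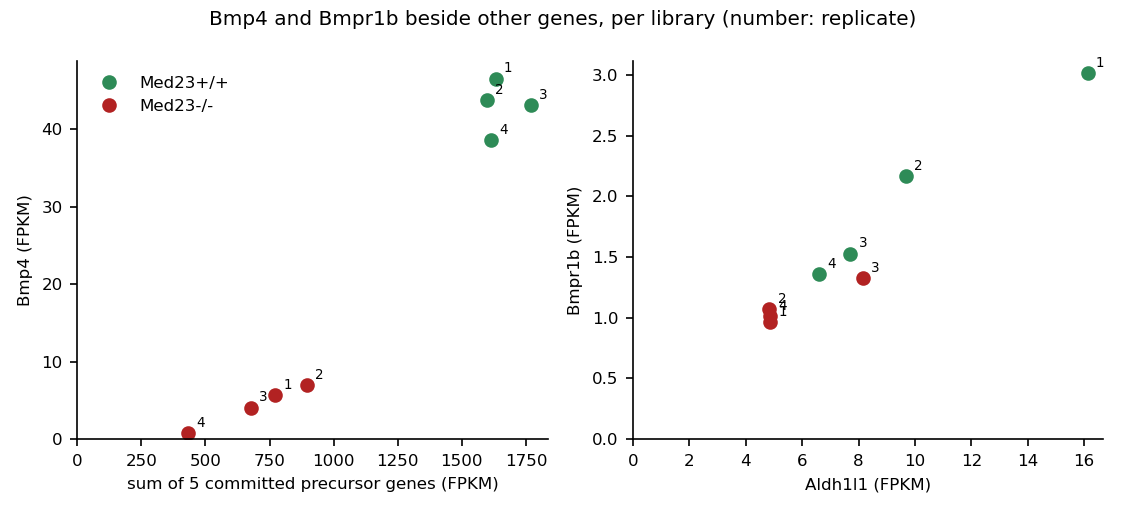
Left, Bmp4 (y axis, FPKM) against the summed FPKM of the 5 committed precursor markers (x axis). Right, Bmpr1b (y axis, FPKM) against Aldh1l1 (x axis, FPKM); each point is a library, green for Med23+/+ and red for Med23-/-, numbered by replicate. The Med23-/- libraries run from replicate 4 (431 and 0.737 FPKM) to replicate 2 (894 and 7.00 FPKM) on the left, and Med23+/+ replicate 1 is highest on both axes on the right.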

How the data were processed

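The authors' reads were trimmed (Cutadapt), mapped to mm10 (TopHat2) and passed to cuffdiff with fragment bias correction and multi-read weighting. The authors deposited 1 table of FPKM per library. The annotation, the tool versions and the strand setting are not given in the sources used here. The fold changes and p-values of the authors' own comparison in this table were not used, and 0 library columns were left out. Read counts are not part of the table, so depth is unknown. From the spacing of values under 0.3 FPKM, the worth of 1 read was estimated at 0.753 to 1.02 relative to Med23+/+ replicate 1, and between 15941 and 16469 genes were above 0.

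The 12328 genes averaging 1 FPKM or more entered limma 3.58.1 (R 4.3.3) on log2(FPKM + 1), eBayes with a mean-variance trend, all 8 libraries, no covariate, with Benjamini-Hochberg adjustment over all genes tested. On simulated data for this comparison with 12328 genes, 194 of 200 changed genes were called (97%), and 13 others. Each changed gene was given a fold change well above 2 and the other genes none, so the recovery of smaller changes was not tested. Tables were made with Python 3.11.15.

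The members, the lists and the markers were chosen with earlier results of these data known. From each list the called genes were named, at most the 4 with the largest change, with any tested target or Smad. Gene positions follow GENCODE vM21 (mm10).

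Alternatives were a pseudocount of 0.1, no filter, a minimum mean of 5 FPKM, quantile and median-ratio scaling, no variance trend, a fold change above 2, a replicate block and leaving out each library. Replicates 1 and 2 against 3 and 4 as a covariate was added after seeing the data.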

Additional observations from a re-analysis of the deposited data

Results flagged for a closer look

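Smad9 in Med23+/+ replicate 2 was at 2.82 FPKM, apart from the other 3 libraries of its genotype, which lay at 2.37 to 2.38 FPKM. The gap was 0.976 of the range of the group, above Dixon's 95% limit for a group of 4. This was 1 of 22 groups tested, and chance alone flags about 1 in 20. The 4 Med23-/- libraries were all below 1 FPKM with or without this library.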

How the results depend on the processing

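With a minimum mean of 5 FPKM, 1281 genes were called higher over all genes, 2 in the BMP lists, and 2 members were called lower, as fewer genes were tested. Quantile normalization gave 3 higher calls in the BMP lists. With a fold change above 2, 216 genes were called lower and 367 higher over all genes, 3 and 1 in the BMP lists, and 1 and 0 among the members. Leaving out 1 library gave 1225 to 1667 lower and 1556 to 1864 higher calls over all genes, 3 to 5 higher calls in the BMP lists and 2 to 3 lower calls among the members, for which the count was 2 without Med23+/+ replicate 3, Med23-/- replicate 1 or Med23-/- replicate 2. No result changed direction past the threshold. Over the single genes outside the members, 536 values kept their side of the threshold, 26 lost the call and 4 gained it; the cause was not tested.

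The replicate numbers are shared by the genotypes, but the deviations of same-numbered libraries correlated at 0.130, -0.096, -0.026 and 0.159, so the numbers were not taken as pairs. With a replicate block, 1835 genes were called lower and 2085 higher over all genes, 10 and 4 in the BMP lists and 4 and 1 among the members. Of the 8 libraries, 3 correlated best with their own number. The second principal component (15.6% of variance) set replicates 1 and 2 apart from 3 and 4 in both genotypes, for which the labels give no reason. With that split as a covariate 1849 genes were called lower and 2094 higher, and 5 and 1 members. Depth could not be taken into account, which limits Bmp2, Smad6, Bambi and Msx2 most.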
